A study of Canis lupus familiaris with 58 samples.

Results

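The genes described here are PRDM1, XBP1, POU2AF1, ELL2, JCHAIN, SDC1 and CD38, which direct or mark the passage of a B cell to an antibody-secreting plasma cell. They were taken by name, as probe sets whose only gene symbol was one of the 7. All 7 had a probe set, out of 15115 gene symbols measured, and together they had 12 probe sets. Each gene was read from its probe set with the highest mean, and the other probe sets served as a check.

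RNA was measured on Affymetrix canine arrays, 1 array for each of 58 client-owned pet dogs with B-cell lymphoma sampled before treatment. Lymph node tissue came from 39 dogs, of which 32 had diffuse large B-cell lymphoma (DLBCL, a fast-growing B-cell tumour of large cells) and 7 had marginal zone lymphoma (MZL, which arises from B cells of the marginal zone). The other 19 samples were fine needle aspirates, whose diagnosis is given as unknown. For IGHV, the variable gene of the immunoglobulin heavy chain, the labels give each dog as static, ongoing or ND, where ND is not explained and static and ongoing are read here as the state of somatic mutation of that gene. Among lymph node DLBCL, 18 dogs were static, 12 ongoing and 2 ND; among lymph node MZL, 1 was static, 4 ongoing and 2 ND; among aspirates, 7 were static, 11 ongoing and 1 ND. Each dog gave 1 sample, so the p-values below measure the spread between dogs. Progression-free survival (PFS) was given for 55 dogs with 47 events and overall survival (OS) for 56 dogs with 41 events.

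A B cell that leaves the germinal centre for the plasma cell fate switches on PRDM1 (BLIMP1), a repressor that shuts down the B-cell programme, while PAX5, BCL6 and BACH2 hold that programme in place. XBP1 then enlarges the secretory apparatus, ELL2, an elongation factor, favours the secreted form of immunoglobulin heavy chain mRNA, and JCHAIN joins immunoglobulin into polymers for secretion. SDC1 (CD138) and CD38 are surface proteins by which plasma cells are recognised, although CD38 is also carried by activated T cells, natural killer cells and myeloid cells, and PRDM1 is also used by effector T cells. POU2AF1 (OBF1) is a B-cell coactivator of the octamer-binding factors that is active in germinal centre B cells as well as in plasma cells.

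The values are log2 expression after robust multi-array averaging (RMA), so a difference of 1 is a doubling, and levels are compared only within a probe set. Array medians lay between 7.08 and 7.20. The B-cell genes MS4A1 (median 12.73, range 6.96 to 13.79) and CD79B (median 10.82, range 7.98 to 12.53) spread widely over the dogs, while the T-cell gene CD3E lay between 8.82 and 10.54, so all samples are mixed tissue in which fewer cells of a type and less RNA per cell cannot be told apart. A pair of aspirates, static replicate 5 and ongoing replicate 3, correlated least with the other arrays (mean correlation 0.952 and 0.941), and a static lymph node DLBCL sample, replicate 15, had the largest difference between the 3' and 5' control probe sets, 2.48, a sign of RNA that is not intact. Ongoing aspirate replicate 3 had the next largest difference, 1.72. POU2AF1 moved with this measure: its correlation with the 3' minus 5' difference was -0.737 over 58 dogs and -0.573 without those 2 arrays, against -0.278 to 0.013 for the other 6 genes over all dogs. Without those arrays SDC1 stood at -0.355, and the other 5 genes lay between -0.080 and 0.157. The part of RNA quality in the POU2AF1 and SDC1 values below was not tested beyond the fits that hold it as a covariate.

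JCHAIN spread most over the dogs, and PRDM1 least. JCHAIN ran from 9.19 to 14.01 with a median of 11.96, a 28.3-fold range, and its standard deviation of 1.25 exceeded that of 99.2% of genes. POU2AF1 ran from 7.79 to 11.96 (median 10.48), a 17.9-fold range whose lowest value belonged to the sample with the largest 3' minus 5' difference. CD38 ran from 6.04 to 9.40 (median 7.17; 10.2-fold), ELL2 from 7.87 to 11.16 (median 9.13; 9.77-fold) and SDC1 from 6.91 to 9.33 (median 7.63; 5.38-fold). XBP1 ran from 10.89 to 12.61 (median 11.83; 3.29-fold). PRDM1 held within 6.60 to 7.72 (median 7.08; 2.19-fold), and 50.6% of genes had a smaller standard deviation. Where a gene had further probe sets they ranked the dogs alike: correlation with the one used was 0.958 for CD38, 0.921 for ELL2, 0.905 for XBP1, and 0.889 and 0.916 for the other JCHAIN probe sets.

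**Figure D1:**
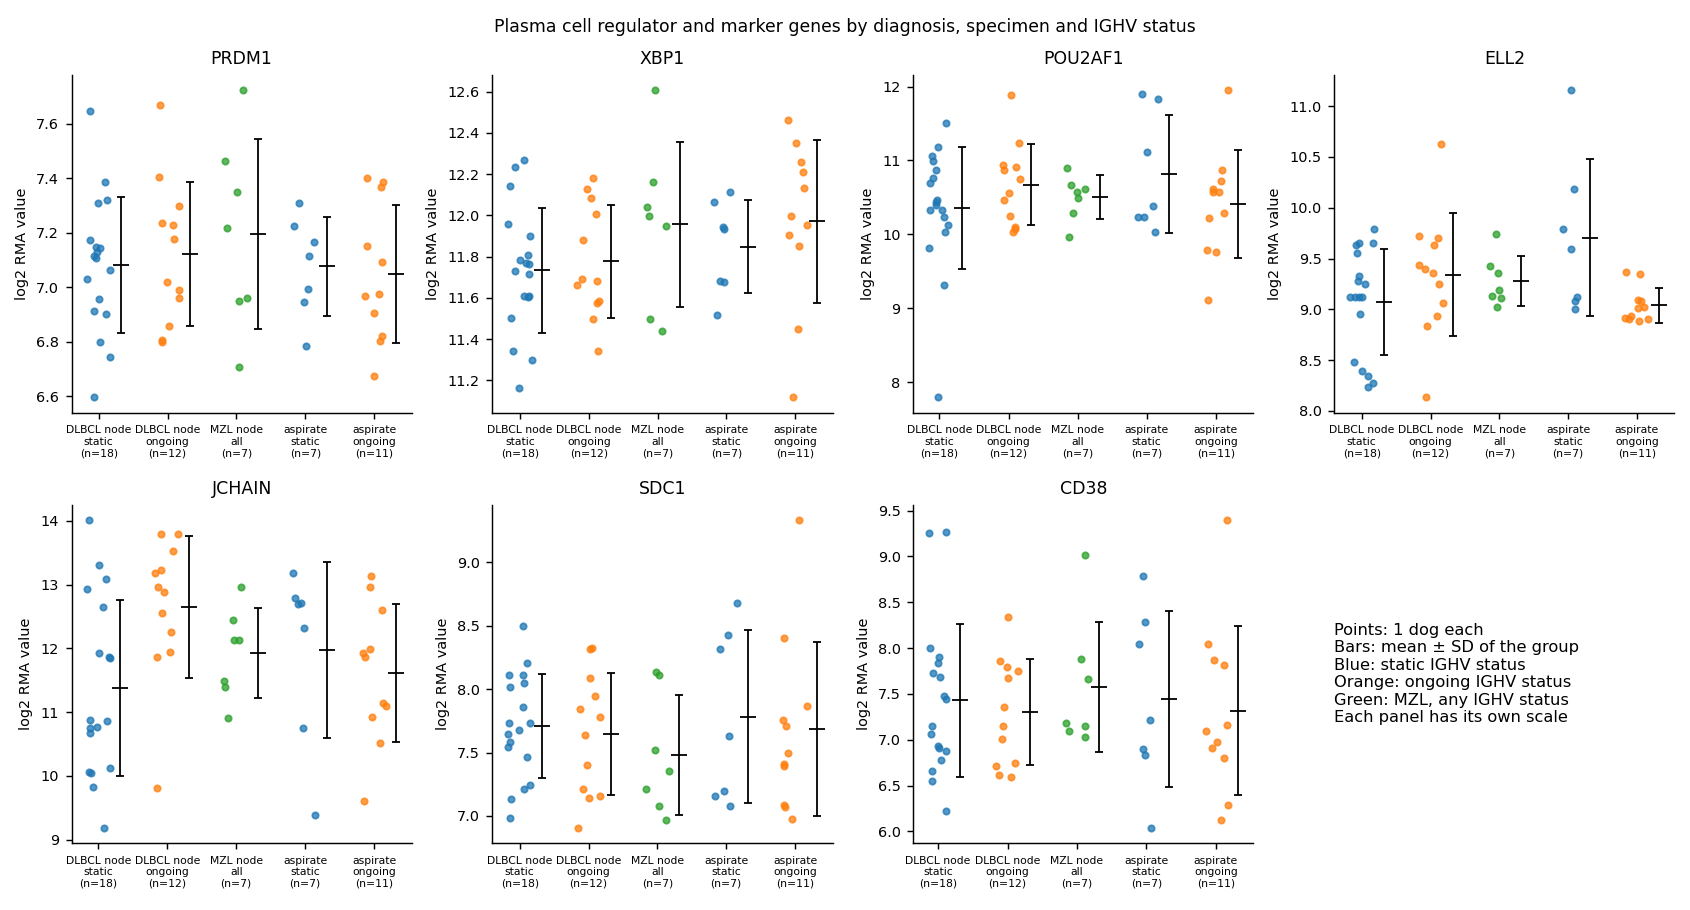
Log2 RMA values (y axis, own scale in each panel) of the 7 genes in each dog, by diagnosis, specimen and IGHV status, with the mean ± SD of each group; the 5 dogs of ND status are shown only where they had MZL. The groups overlap for every gene, JCHAIN is the most widely spread, and most static DLBCL nodes lie in the lower part of the JCHAIN range.

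Static and ongoing tumours were compared first, since B cells mutate IGHV while in the germinal centre and plasma cell genes mark the step that follows. Over 26 static and 27 ongoing dogs, none of the 7 genes passed the test. The fit was limma with diagnosis and specimen as a stratum and Benjamini-Hochberg adjustment over all genes, in which 0% of genes passed an adjusted p of 0.05. None of the 7 passed an unadjusted p of 0.05 either, against 7.13% of all genes (1077 of 15115), and with the rank-sum test none of the 7 passed at either level, where 0 genes passed after and 328 before adjustment.

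JCHAIN, the joining chain, had the largest difference of the 7. Its mean was 11.54 ± 1.35 (SD) over the 26 static dogs and 12.15 ± 1.14 over the 27 ongoing ones, a stratum-adjusted difference of -0.66 ± 0.35 (SE; 95% interval -1.37 to 0.046; p = 0.0663 before and 0.719 after adjustment in limma). It was larger within lymph nodes. In lymph node DLBCL the 18 static dogs ran from 9.19 to 14.01 with a median of 10.87, and the 12 ongoing dogs from 9.81 to 13.80 with a median of 12.92. The ranges overlap almost fully, but 13 of the 18 static dogs and 3 of the 12 ongoing dogs lay below the median of all 58 dogs. Over all lymph nodes static samples had 11.38 ± 1.34 (n = 19) and ongoing samples 12.52 ± 1.05 (n = 16), a difference of -1.21 ± 0.42 (SE; unadjusted p = 0.0069, adjusted p = 0.999 in limma), where 0% of genes passed after adjustment and 2.24% before. The other JCHAIN probe sets gave -0.83 and -0.40 in lymph nodes, with unadjusted p of 0.0208 and 0.0116. In lymph nodes all 7 B-cell markers measured were also lower in static samples (median -0.37; CD79A -0.51, MS4A1 -0.43), as were 7 of 7 granulocyte markers (median -0.28), while 9 of 12 macrophage markers were higher (median 0.18), against a median of -0.0016 over all genes. The summed level of the B-cell markers ran from 8.78 to 10.54 in static and from 9.07 to 10.77 in ongoing nodes as a mean over the list; its part in the JCHAIN difference was not tested.

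In aspirates JCHAIN pointed the other way. The 7 static aspirates ran from 9.39 to 13.18 (median 12.69) and the 11 ongoing ones from 9.61 to 13.14 (median 11.86), means of 11.98 ± 1.38 and 11.61 ± 1.08 and a difference of 0.36 ± 0.54 (SE; unadjusted p = 0.509). The lowest static aspirate, at 9.39, was replicate 5, one of the arrays that correlated least with the rest. The difference between specimens, tested as an interaction, was 1.57 ± 0.71 for JCHAIN (SE; 95% interval 0.14 to 3.00; unadjusted p = 0.0323, adjusted p = 0.520 in limma). It did not pass. It was 1.80 without the 2 arrays of lowest correlation and 1.38 with the 3' minus 5' difference as a covariate, and 1.46 and 0.71 with the other JCHAIN probe sets.

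ELL2, the elongation factor, also differed in direction between specimens. In aspirates the 7 static samples ran from 9.01 to 11.16 with a median of 9.59, and the 11 ongoing samples lay close together, from 8.88 to 9.36 with a median of 9.02. Static aspirates thus reached far above the ongoing range, with 4 of the 7 higher than any ongoing aspirate and the other 3 inside it. The means were 9.71 ± 0.77 and 9.04 ± 0.17, a difference of 0.66 ± 0.22 (SE; unadjusted p = 0.008, adjusted p = 0.172 in limma). In aspirates 14.1% of all genes passed 0.05 before adjustment and 0.0397% after it. The highest static aspirate, at 11.16, was again replicate 5; without the 2 arrays of lowest correlation the ELL2 difference in aspirates was 0.41 (unadjusted p = 0.0175). In lymph nodes the ELL2 means were 9.07 ± 0.50 over 19 static dogs and 9.31 ± 0.52 over 16 ongoing ones, differing by -0.26 ± 0.18 (SE; unadjusted p = 0.154). The interaction was 0.92 ± 0.30 (SE; 95% interval 0.32 to 1.52; unadjusted p = 0.00335, adjusted p = 0.341), and 1.02 with the other ELL2 probe set. Of all genes 0.0132% passed the interaction after adjustment (2 of 15115, neither of them one of the 7) and 9.1% before it, against 2 of the 7, ELL2 and JCHAIN.

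EAF1, which binds ELL-family elongation factors, had a similar pattern in aspirates (0.49 ± 0.14, SE; adjusted p = 0.122) with -0.028 in lymph nodes. Of the 10 genes measured from a list of parts and regulators around the complex in which ELL2 acts, 5 were higher and 5 lower in static aspirates. An unadjusted 0.05 was passed by 2, EAF1 and HEXIM1 (0.49), with none passing after adjustment. Of all genes 14.1% passed in aspirates before adjustment and 0.0397% after it.

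The other regulators showed small differences by IGHV status. PRDM1, the BLIMP1 repressor, was 7.10 ± 0.24 in static and 7.09 ± 0.28 in ongoing dogs, a difference of 0.012 (95% interval -0.14 to 0.16). XBP1, the secretory regulator, was 11.76 ± 0.28 and 11.90 ± 0.36, a difference of -0.10 (95% interval -0.29 to 0.078), and -0.094 in lymph nodes against -0.12 in aspirates. POU2AF1 was 10.48 ± 0.81 and 10.53 ± 0.60, a difference of -0.054 (95% interval -0.46 to 0.35). For POU2AF1 the specimens differed in sign, -0.30 ± 0.24 in lymph nodes and 0.41 ± 0.34 in aspirates (SE), and the interaction of 0.71 (unadjusted p = 0.0952) dropped to 0.21 with the 3' minus 5' difference as a covariate. The surface markers gave 0.12 for SDC1 (95% interval -0.18 to 0.42) and 0.068 for CD38 (95% interval -0.39 to 0.52).

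**Figure D2:**
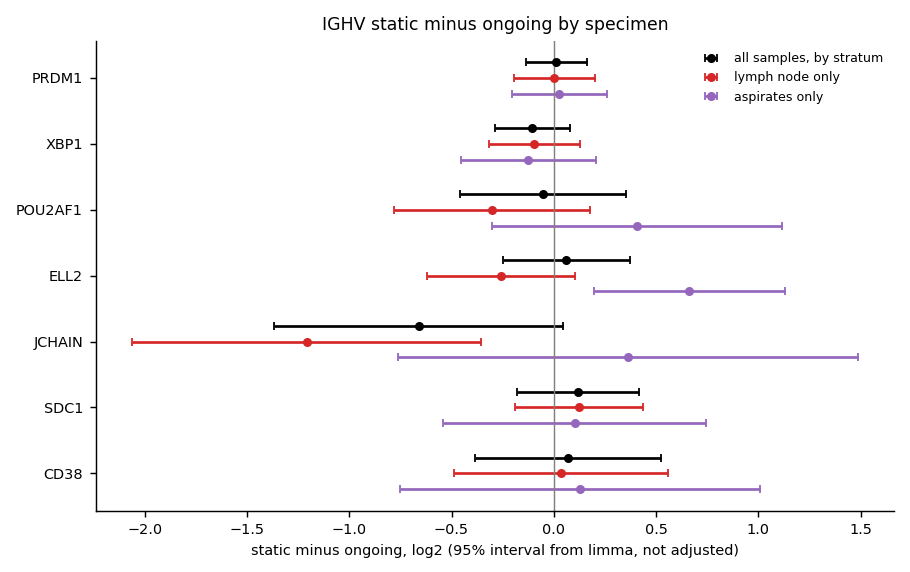
Static minus ongoing difference in log2 (x axis) of each gene with its 95% interval from limma, not adjusted for the number of genes, over all samples with the stratum held, in lymph nodes alone and in aspirates alone. The lymph node interval of JCHAIN (-1.21) and the aspirate interval of ELL2 (0.66) are the ones that leave out 0.

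Few other genes of the pathway differed by IGHV status before adjustment, where 7.13% of all genes passed an unadjusted 0.05. Of 18 further plasma cell genes measured, 5 were higher and 13 lower in static tumours (median -0.094, against -0.0047 over all genes), and none passed at either level. Of 29 XBP1-linked secretory genes, 15 were higher and 14 lower (median 0.0092), with SEC24D (0.32), SDF2L1 (-0.33) and SSR3 (-0.12) passing an unadjusted 0.05 and none the adjusted one. Of 14 regulators of B-cell identity, 1 passed unadjusted, near the share of all genes: ID3, an inhibitor of E proteins, at -0.29. Of 16 inducers of plasma cell differentiation, 1 passed unadjusted, also near that share. It was CD40, the receptor for T-cell help, at -0.24 ± 0.084 (SE, unadjusted p = 0.00536, adjusted p = 0.670 in limma). HYOU1, a chaperone of the endoplasmic reticulum, had an interaction of 0.52 ± 0.15 (SE; adjusted p = 0.243), with 0.44 in aspirates and -0.074 in lymph nodes. Of the 29 secretory genes 24 had a positive interaction (median 0.12), against 48.4% of all genes (median -0.0062). The interaction passed an unadjusted 0.05 for 3 of these 29, where 9.1% of all genes did, and for none after adjustment. IRF4, TNFRSF17 and MZB1, which belong to the same programme, and the immunoglobulin chains were not analysed here.

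Diagnosis was compared within lymph nodes, 7 MZL against 32 DLBCL, since marginal zone tumours can show plasma cell differentiation. None of the 7 genes passed limma at an adjusted or an unadjusted p of 0.05, where 0% and 1.16% of genes passed, and the rank-sum test called none of the 7 at either level (231 of all genes before adjustment and 0 after it). XBP1 ran from 11.44 to 12.61 in MZL (median 12.00) and from 10.89 to 12.27 in DLBCL (median 11.71). Its means were 11.96 ± 0.40 and 11.71 ± 0.33, a difference of 0.25 ± 0.14 (SE; 95% interval -0.034 to 0.54; unadjusted p = 0.0825, adjusted p = 1.00). XBP1 had the smallest p of the 7 genes, with 2.36% of all genes at or below it. CD38 ran from 7.03 to 9.02 in MZL (median 7.18) and from 6.22 to 9.26 in DLBCL (median 7.26), a difference of 0.23 ± 0.30 (SE). A single MZL sample, ongoing replicate 2, held the highest CD38 (9.02), PRDM1 (7.72) and XBP1 (12.61) of the MZL group; without it the differences were -0.013 for CD38, 0.14 for XBP1 and 0.026 for PRDM1, which was 0.11 with it. With all 7 MZL dogs SDC1 was the one gene of the 7 with a lower mean in MZL, at -0.19 (95% interval -0.55 to 0.16), and ELL2, POU2AF1 and JCHAIN lay at 0.095, 0.063 and 0.023.

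Secretory genes lay on the same side as XBP1: 23 of 29 were higher in MZL (median 0.080, against -0.0070 over all genes, of which 46.1% were higher). DNAJB11, a co-chaperone, was at 0.18 ± 0.058 (SE; unadjusted p = 0.00324) and HSPA5 (BiP) at 0.18 ± 0.090 (unadjusted p = 0.0463), both with an adjusted p of 1.00. Among the other plasma cell genes CD27, a marker of memory B cells, plasma cells and T cells, was at 0.67 ± 0.26 (SE; unadjusted p = 0.015). T-cell markers were higher in 10 of 13 cases (median 0.22) and cytotoxic cell markers in 7 of 9 (median 0.45), and their part in the CD27 and CD38 values was not tested. MZL held 1 static dog among the 5 of known status. With IGHV status as a covariate, ND dogs included, JCHAIN turned from 0.023 to -0.38. XBP1 then stood at 0.32 ± 0.15 (SE; unadjusted p = 0.0353, adjusted p = 1.00 in limma). Of 15115 genes 205 passed an unadjusted 0.05 in that fit. The XBP1 gap was widest in ND dogs, with means of 12.00 in 2 MZL and 11.01 in 2 DLBCL nodes. Ongoing dogs had 12.05 (n = 4) and 11.78 (n = 12), and the 1 static MZL dog lay below the static DLBCL mean of 11.73. The part of the ND dogs in the covariate value was not tested.

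Between specimens none of the 7 genes passed limma, at an adjusted p (0.119% of genes, 18 of 15115, of which none was one of the 7) or an unadjusted one (11.8%). The rank-sum test called none as well. XBP1 was nearest, at 11.93 ± 0.33 (n = 19) in aspirates and 11.75 ± 0.35 (n = 39) in lymph nodes, a difference of 0.18 ± 0.096 (SE; 95% interval -0.0093 to 0.37; unadjusted p = 0.0618, adjusted p = 0.456). Among the lymph nodes mean XBP1 was 11.71 ± 0.33 in DLBCL (n = 32) and 11.96 ± 0.40 in MZL (n = 7). Between aspirates and all lymph nodes POU2AF1 differed by 0.15, SDC1 by 0.053, ELL2 by 0.020, CD38 by -0.0072, JCHAIN by -0.043 and PRDM1 by -0.046. Around them, CREB3L2, a membrane-bound transcription factor of the secretory pathway, was higher in aspirates by 0.17 ± 0.043 (SE; adjusted p = 0.0663) and MYC lower by 0.62 on the log2 scale (SE 0.17; adjusted p = 0.0894), neither past the threshold. Cell type markers moved with specimen. All 13 T-cell markers (median 0.26) and all 9 cytotoxic markers (median 0.45, NCR3 called with a limma adjusted p = 0.0443) were higher in aspirates. So were 6 of 7 B-cell markers (median 0.20) and 5 of 7 granulocyte markers (median 0.22). Of 4 erythroid markers 2 were higher and 2 lower, and 1 was called higher. Of 12 macrophage markers 4 were higher and 8 lower. More cells of a type and more RNA per cell cannot be told apart here.

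None of the 7 genes was related to outcome beyond the threshold. Cox models stratified by specimen called none for PFS (0% of all genes after adjustment, 2.83% before) and none for OS (0.00662% after adjustment, 1 gene of 15115 and not one of the 7, and 3.99% before). PRDM1 had the highest hazard ratios, 2.14 per log2 unit for PFS (95% interval 0.615 to 7.46; score p = 0.231) and 3.25 for OS (95% interval 0.823 to 12.8; score p = 0.0913), both with an adjusted p of 1.00. The unit is wide for this gene, whose whole range over the dogs was 1.13. In lymph nodes alone PRDM1 gave 4.35 for PFS (95% interval 1.02 to 18.7; unadjusted score p = 0.0457), at which 5.66% of all genes passed, and in aspirates 0.443 (95% interval 0.0514 to 3.82). The difference between specimens for PRDM1 had a likelihood-ratio p of 0.0879, and 0.912 after adjustment over the 14 such tests.

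JCHAIN alone of the 7 had hazard ratios under 1 for both outcomes, 0.825 for PFS (95% interval 0.636 to 1.07) and 0.901 for OS (95% interval 0.684 to 1.19), although in aspirates its OS ratio was 1.10. The other 5 genes had ratios from 1.03 (ELL2) to 1.30 (SDC1) for PFS and from 1.09 (ELL2) to 1.42 (SDC1) for OS, with intervals that all held 1. For PFS, SDC1 allowed a ratio from 0.803 to 2.11 and CD38 from 0.798 to 1.72, so ratios within these intervals are not excluded with 47 events.

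**Figure D3:**
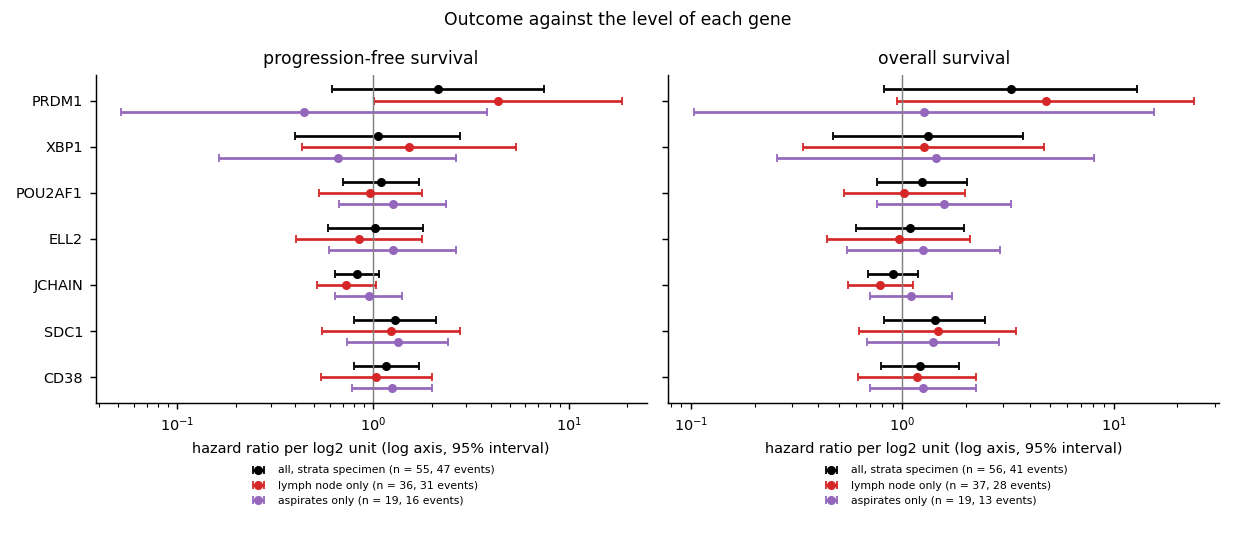
Hazard ratio per log2 unit (x axis, log scale) with its 95% interval for PFS (left) and OS (right), over all dogs stratified by specimen, in lymph nodes and in aspirates. Every interval holds 1 except that of PRDM1 for PFS in lymph nodes (1.02 to 18.7).

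Whether the 7 genes moved together from dog to dog was asked over all 21 pairs, with values centred within specimen. Of the pairs 18 had a positive Pearson r, 6 passed a permutation test after Benjamini-Hochberg adjustment over the 21, and 3 did so by Spearman's rho. The closest pair was POU2AF1 and SDC1, r = 0.513 (permutation p = 5e-05, adjusted p = 0.00105) and rho = 0.503 (permutation p = 0.00011, adjusted p = 0.00231), with r = 0.570 without the 2 dogs farthest from the POU2AF1 median and 0.509 with the 3' minus 5' difference regressed out. XBP1 and POU2AF1 gave r = 0.416 and rho = 0.401 (permutation adjusted p = 0.0134 and 0.021), and r = 0.308 without the 2 arrays of highest 3' minus 5' difference, where it no longer passed (adjusted p = 0.0658). PRDM1 and XBP1, the repressor and a gene that acts after it, gave r = 0.386 (permutation adjusted p = 0.0197) but rho = 0.287 (adjusted p = 0.125) and r = 0.275 without the 2 farthest dogs.

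CD38 passed with JCHAIN (r = 0.370, rho = 0.304; permutation adjusted p = 0.0197 and 0.116), with XBP1 (r = 0.369, rho = 0.259; 0.0197 and 0.165) and with PRDM1 (r = 0.346, rho = 0.354; 0.0249 and 0.0472). Without the 2 farthest dogs these r were 0.284, 0.260 and 0.266. ELL2 passed with none of the other 6 genes, its r ranging from -0.127 with JCHAIN to 0.141 with SDC1. Within lymph nodes alone no pair passed, the highest r being 0.379 for PRDM1 and CD38.

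The pairs were not alike in the specimens. CD38 and POU2AF1 had r = 0.642 over 19 aspirates and -0.295 over 39 lymph nodes, a difference of 0.938 (permutation of specimen over dogs, p = 0.00025, adjusted over 21 pairs 0.00525). CD38 and SDC1 had r = 0.720 in aspirates and -0.084 in lymph nodes, a difference of 0.804 (permutation p = 0.00283, adjusted p = 0.0297). The 3 aspirates with the highest SDC1 were also high in CD38 and POU2AF1: ongoing replicate 8 had 9.33 for SDC1, 9.40 for CD38 and 11.96 for POU2AF1, and static replicates 4 and 6 had 8.68 and 8.43 for SDC1, 8.79 and 8.04 for CD38, and 11.83 and 11.90 for POU2AF1. Without the 2 aspirates farthest from the SDC1 median the r of SDC1 with CD38 was 0.447, and without the 2 farthest from the POU2AF1 median that of POU2AF1 with CD38 was 0.589. Without the 2 arrays of lowest correlation the same r were 0.707 and 0.687. XBP1 and JCHAIN had r = 0.732 in aspirates and 0.092 in lymph nodes; this difference did not pass (permutation p = 0.00938, adjusted p = 0.0657), and without the 2 arrays of lowest correlation the aspirate r was 0.551.

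**Figure D4:**
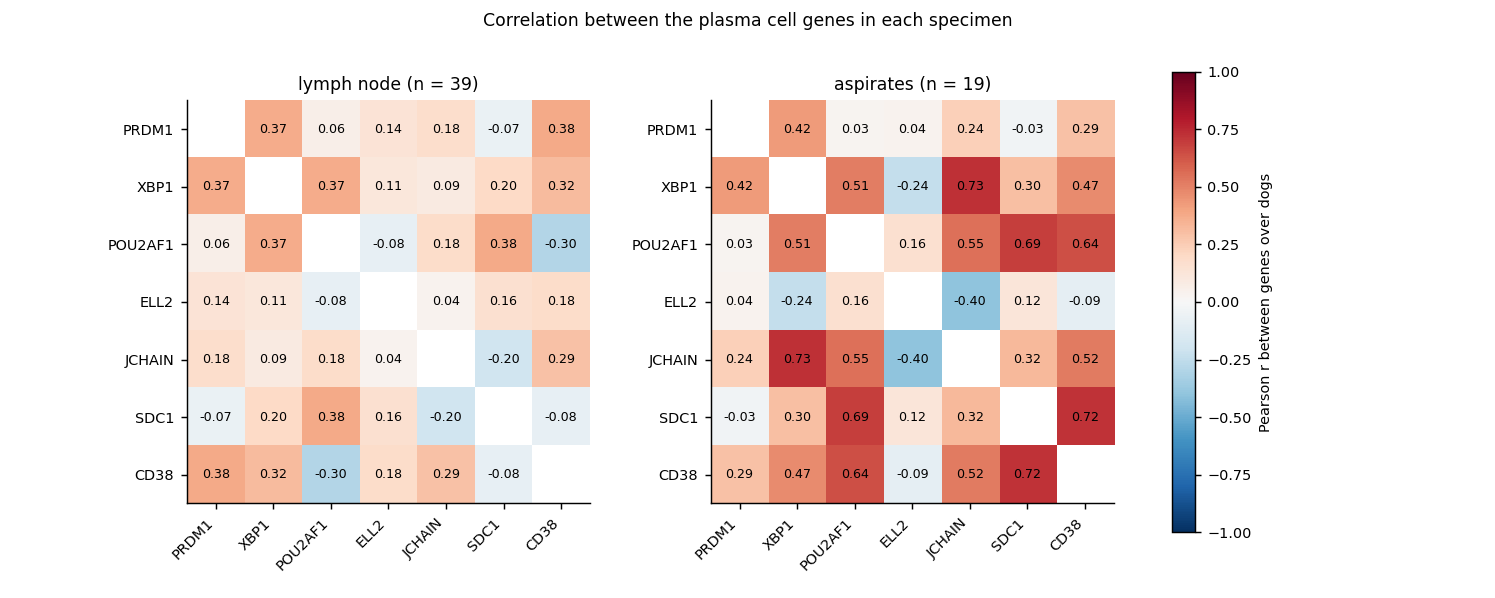
Pearson r between each pair of genes over 39 lymph node samples (left) and 19 aspirates (right). POU2AF1, SDC1 and CD38 form a block of positive r in aspirates (0.64 to 0.72), while in lymph nodes CD38 has r of -0.30 with POU2AF1 and -0.08 with SDC1.

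Against 14 measured regulators of B-cell identity, a family of 98 pairs added after the data were seen, 21 pairs passed the same permutation test by r and 16 by rho, and 19 of the 21 were positive. The 5th to 95th percentile of r over all genes was -0.415 to 0.405 for POU2AF1 and -0.394 to 0.330 for SDC1. It was -0.286 to 0.289 for ELL2, -0.255 to 0.264 for CD38, -0.244 to 0.241 for JCHAIN and -0.295 to 0.310 for PRDM1. The r of POU2AF1 with EBF1 and of SDC1 with PAX5, given below, lay inside these ranges. The 3' minus 5' difference, with which POU2AF1 had r = -0.737, was not held in these pairs, and its part in them was not tested. POU2AF1 went with IKZF1 (r = 0.690), SPI1 (r = 0.598), IRF8 (r = 0.559) and FOXO1 (r = 0.425). It also passed with TCF3 (r = 0.407) and EBF1 (r = 0.390), though not by rho, and these were 0.241 and 0.138 without the 2 farthest dogs. SDC1 went with SPI1 (r = 0.480), IKZF1 (r = 0.460), IRF8 (r = 0.441), BACH2 (r = 0.436), FOXO1 (r = 0.434) and IKZF3 (r = 0.405), and inversely with PAX5 (r = -0.357, which was -0.129 with the mean of probe sets). By rho the SDC1 pairs with IRF8 and PAX5 did not pass (permutation adjusted p = 0.0653 and 0.0615), and IRF8 was at 0.266 without the 2 farthest dogs. ELL2 went with BCL6, the germinal centre repressor (r = 0.414; rho = 0.313), and inversely with ID3 (r = -0.408; rho = -0.289), neither of which passed by rho. The r of ELL2 with ID3 was -0.231 without the 2 farthest dogs and -0.262 without the 2 arrays of lowest correlation, and it was -0.211 in lymph nodes and -0.656 in aspirates. CD38 went with MITF (r = 0.643) and BCL6 (r = 0.366), JCHAIN with TCF3 (r = 0.472), and PRDM1 with MITF, IRF8 and TCF3 (r = 0.385, 0.368 and 0.350), of which IRF8 did not pass by rho. Of the 14 pairs of PRDM1 with these regulators, those that passed were positive, and the lowest r was -0.197, with SPI1. PRDM1 is known to repress PAX5, BCL6 and CIITA. Its r with them was 0.133, 0.155 and 0.104, and none passed (permutation adjusted p = 0.522, 0.480 and 0.619). PRDM1 and PAX5 ranged only from 6.60 to 7.72 and from 6.89 to 7.60 over these mixed samples. Repression was not tested by these r. XBP1 had no pair past the threshold by r, and 1 by rho, with FOXO1 (r = 0.333, permutation adjusted p = 0.0507; rho = 0.369, adjusted p = 0.0366).

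Around each gene, the nearest genes and the cell type lists differed. These correlations, over 58 dogs with specimen centred, share the arrays and their quality, and are given as descriptions with no p. For PRDM1 the nearest named genes were CD99 (r = 0.676), S100A4 (r = 0.621), RRBP1, a ribosome receptor of the endoplasmic reticulum (r = 0.612), ZEB2, a transcription factor (r = 0.611), and AKR1E2 (r = 0.607). These were closer in lymph nodes, where the 5 genes had r from 0.698 to 0.762, than in aspirates, where CD99 had r = 0.328, S100A4 0.166 and AKR1E2 -0.072; the difference was not tested. All 9 cytotoxic cell markers had a positive r with PRDM1 (median 0.41), none of the 7 B-cell markers did (median -0.11), and the median over all genes was 0.037. Fibroblast markers were also positive in 7 of 8 cases (median 0.29) and T-cell markers in 9 of 13 (median 0.19). Epithelial markers were positive in 7 of 7 cases (median 0.096) and granulocyte markers in 2 of 7. The part of such cells in the PRDM1 values was not tested. Of the plasma cell genes SLAMF7 was highest (r = 0.446), a receptor shared by plasma cells and cytotoxic cells.

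CD38 lay among genes of other cell types. Its nearest genes were SRGN, a granule proteoglycan (r = 0.763), KLRD1, a natural killer cell receptor (r = 0.756), CSF1R, the macrophage growth factor receptor (r = 0.745), IL18 (r = 0.725) and TSPAN13 (r = 0.716), and each of these r was at least 0.598 in both specimens. Cytotoxic markers were positive in 8 of 9 cases (median 0.60), T-cell markers in 11 of 13 (median 0.43) and macrophage markers in 11 of 12 (median 0.33), against a median of 0.043 for the 7 B-cell markers, 0.012 for the 18 other plasma cell genes and -0.039 for all genes. CD27 (r = 0.588) led the plasma cell genes. The mean over the cytotoxic list ran from 6.70 to 9.79 in aspirates, from 6.34 to 9.34 in DLBCL nodes and from 6.63 to 8.86 in MZL nodes; the part of such cells in the CD38 values was not tested.

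POU2AF1 lay with B-cell genes. All 7 B-cell markers were positive (median 0.43; CD79B 0.65, CD22 0.54, CD79A 0.50), T-cell markers had a median of 0.037, and its 18 plasma cell companions a median of 0.059. Cytotoxic markers were also positive in 8 of 9 cases (median 0.29), against a median of -0.064 over all genes. Its nearest named genes were EMD (r = 0.795), TAGLN2 (r = 0.790), HNRNPA0 (r = 0.784), C9H17orf99 (r = 0.781) and SGTA (r = 0.778), and among the inducers of differentiation RELA, an NF-kB subunit, had r = 0.703. The correlation of POU2AF1 with the 3' minus 5' difference given above stands beside all of these. SDC1 had CLPTM1 (r = 0.718), FOXP1, a B-cell transcription factor (r = 0.716), DUSP22 and RELA (both r = 0.665) and ICOSLG (r = 0.656) nearest. All 7 B-cell markers were positive with SDC1 (median 0.27), as were 8 of 9 cytotoxic markers (median 0.28). Of the 18 plasma cell genes 6 were positive (median -0.057), a share near that of all genes, of which 37.9% were positive (median -0.079). C1QB, a macrophage complement gene, had r = 0.540 with SDC1.

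Most secretory genes had a positive r with each of the 7 genes. Of the 29 XBP1-linked secretory genes, 27 had a positive r with XBP1 (median 0.17), where 37.8% of all genes were positive (median -0.066), and the highest was DNAJB9 (ERdj4), a classical XBP1 target (r = 0.514). The medians of XBP1 with T-cell markers (0.28), B-cell markers (0.22) and cytotoxic markers (0.20) were higher than that with secretory genes. The nearest genes to XBP1 over the whole array were B2M, the light chain of MHC class I (r = 0.660), LXN (r = 0.611), CTSS, a lysosomal protease (r = 0.602), ZUP1 (r = 0.590) and ACP5 (r = 0.558), all with r of at least 0.492 in both specimens. JCHAIN had 25 of 29 secretory genes positive (median 0.15), led by DNAJB11 (r = 0.411), where 44.5% of all genes were positive (median -0.020). Its medians were 0.25 with cytotoxic and 0.17 with fibroblast markers. It had S1PR4, a lymphocyte sphingosine phosphate receptor (r = 0.610), UTP3 (r = 0.553), PIK3CD, a lymphocyte PI3-kinase (r = 0.548), and the class II genes DLA-DMA and DLA-DRA (r = 0.521 and 0.520) nearest. PRDM1 had 23 of 29 secretory genes positive with the highest median of the 7 genes, 0.18. It also had the highest all-gene share and median, 57.3% and 0.037. CD38 had 28 of 29 (median 0.14), against 39.9% of all genes. POU2AF1 and SDC1 had 20 each (medians 0.080 and 0.068), against 40.4% and 37.9% of all genes. ELL2 had 17 (median 0.033), against 42.3%.

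ELL2 had mostly negative r with the plasma cell genes. Of the 18 other plasma cell genes 2 had a positive r with it (median -0.12, against -0.033 for all genes), and the IL6 receptor gene IL6R, which plasma cells use for survival, had the lowest r of all genes measured, -0.571. TNFRSF13B (TACI) was at -0.52 and TNFRSF13C (the BAFF receptor) at -0.45. Its nearest genes were GLRX (r = 0.634), CCR1 (r = 0.574, with 0.871 in aspirates and 0.281 in lymph nodes) VIM (r = 0.571), PPFIBP1 (r = 0.543) and ADAMTS6 (r = 0.541). The wide static aspirate values of ELL2 entered these correlations, replicate 5 at 11.16 among them.

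**Figure D5:**
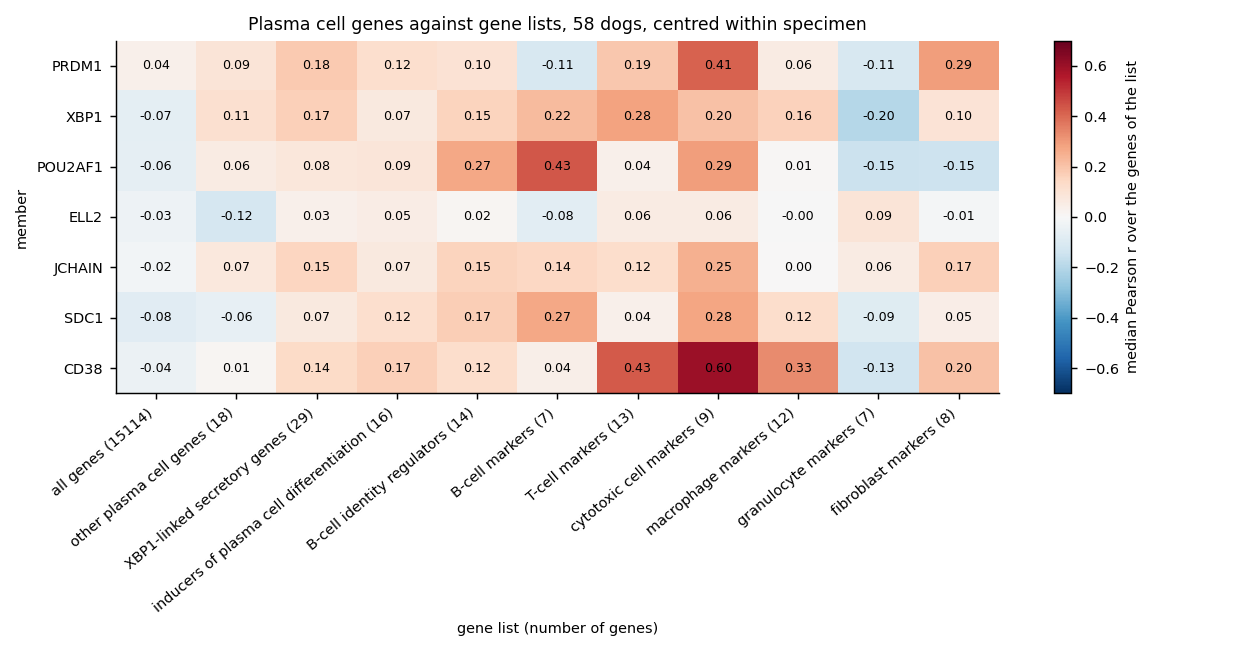
Median Pearson r of each gene (rows) with the genes of 10 lists and with all genes (columns, number of genes in brackets; lists of under 7 genes and the lists of elongation factors, epithelial and erythroid markers are not drawn) over 58 dogs, centred within specimen. CD38 and PRDM1 have their highest medians with cytotoxic markers (0.60 and 0.41), POU2AF1 with B-cell markers (0.43), and the medians of ELL2 drawn here lie between -0.12 (other plasma cell genes) and 0.093 (granulocyte markers).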

How the data were processed

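RNA from 58 dogs was measured on Affymetrix canine arrays, and the authors deposited log2 values made by robust multi-array averaging (RMA) in Affymetrix Expression Console, per the submitters' processing notes. Tool versions, the genome build and whether all arrays were normalized together are not given in the sources used here. RMA sets all arrays to a common distribution, so a shift of all genes cannot be seen, and the number of arrays limits the precision. Of 43035 probe sets, 29254 had 1 symbol in the platform annotation, 439 several, 13231 none and 111 were controls. The probe set of highest mean stood for each of 15115 genes.

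Samples were grouped from the labels. Comparisons used limma 3.58.1 in R 4.3.3 with Benjamini-Hochberg adjustment over 15115 genes and a threshold of 0.05: IGHV status with diagnosis and specimen as a stratum, its interaction with specimen, MZL against DLBCL, and aspirates against lymph nodes. Outcome used Cox models in survival 3.8.3, stratified by specimen. The time unit of survival is not given, and a status of 1 was taken to mean that the event occurred, since PFS and OS times were equal in each of the 8 dogs with PFS status 0. Correlations were centred within specimen, with 100000 permutations of the dogs. Intervals are 95% intervals. Other steps ran in Python 3.11.15. The fits were tested on simulated data.

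The 7 genes and all lists were chosen with earlier results of these data known. The text names the 7 genes and list genes past the threshold, except 1 erythroid marker, or else up to 3 of smallest p. It also names the 5 genes with a symbol nearest to each of the 7. Other list genes were named after their values were seen. Alternatives were other probe sets, quantile normalization, the rank-sum test, other covariates and left-out arrays. The 2 specimens were compared for pair correlations, and the regulators were correlated, after the data were seen. In the interaction and the pair correlations the 3' minus 5' difference was also held after the data were seen. For the other comparisons of groups over all samples it was a planned covariate.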

Additional observations from a re-analysis of the deposited data

Results flagged for a closer look

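CD38 in lymph node MZL had 1 sample that stood apart by a narrow margin, ongoing replicate 2 at 9.02, while the next MZL sample was at 7.88. Its gap was 0.570 of the range, against a critical value of 0.568. Among the 4 ongoing MZL dogs alone it did not stand apart (0.570 against 0.829). The gap was tested for 21 sets of a gene and a group of 4 to 10 dogs. The ongoing MZL dogs also belong to the MZL group, so these sets are not separate. Chance sets apart about 1 in 20 sets, and this was the 1 that stood apart. The same sample had the highest PRDM1 (7.72) and XBP1 (12.61) of the 58 dogs.

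The correlation of POU2AF1 with CD38 was higher in aspirates than in lymph nodes by 0.938 (permutation p = 0.00025, adjusted p = 0.00525 over 21 pairs). The correlation of SDC1 with CD38 was higher in aspirates by 0.804 (permutation p = 0.00283, adjusted p = 0.0297). Spearman's rho gave 0.528 against -0.386 for the first pair and 0.542 against -0.145 for the second. Specimen and diagnosis cannot be told apart here, since no aspirate has a known diagnosis.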

How the results depend on the processing

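None of the 7 genes passed an adjusted p of 0.05 in any comparison of groups or with outcome, under any alternative run. Over 553 alternatives of single values, 472 kept direction and side of the threshold and 52 turned direction, none of the latter with an adjusted p under 0.05. In 24 the threshold was lost and in 5 it was newly passed, all of them pair correlations. Among the pair correlations 48 alternatives kept direction and side, and 4 turned. These alternatives do not cover all 21 pairs. They cover the pairs that passed and those whose specimens differed at an unadjusted permutation p under 0.05. Most of the 472 were group or outcome values, which never passed. The causes were not tested. Of the 21 pairs, 6 passed; 0 passed in lymph nodes alone, with or without the array of highest 3' minus 5' difference, and 3 in aspirates without the 2 arrays of lowest correlation. In lymph nodes POU2AF1 with CD38 was at -0.295 and SDC1 with CD38 at -0.084, and at -0.304 and -0.069 without that array.

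The turned IGHV differences were as follows. Without the 2 arrays of lowest correlation PRDM1 was -0.0059 and ELL2 -0.047, and without the 2 of highest 3' minus 5' difference PRDM1 was -0.0020. In lymph node DLBCL PRDM1 was -0.038 and ELL2 -0.27, in all lymph nodes ELL2 was -0.26, and in aspirates POU2AF1 was 0.41 and JCHAIN 0.36. Within aspirates PRDM1 was -0.026 without the low arrays and XBP1 0.0071 with its other probe set. The interaction of XBP1 was 0.032 with the mean of probe sets and 0.094 with the other one; that of PRDM1 was -0.029 and -0.013 without each pair of arrays, and that of SDC1 0.096 without the low ones.

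For MZL against DLBCL, JCHAIN was -0.068 with the mean of probe sets, -0.20 and -0.023 with the others, -0.034 without the 2 arrays of highest 3' minus 5' difference (POU2AF1 -0.022) and -0.38 with IGHV as a covariate (ELL2 -0.035). Leaving out 1 MZL dog at a time turned JCHAIN in 4 of 7 cases (-0.15, -0.065, -0.012 and -0.012), POU2AF1 in 1 (-0.0020) and CD38 in 1 (-0.013); the ranges were -0.15 to 0.19, -0.0020 to 0.15 and -0.013 to 0.32. For aspirates against lymph nodes, ELL2, JCHAIN and CD38 were -0.075, 0.24 and 0.089 without the low arrays, JCHAIN and CD38 0.036 and 0.021 without the arrays of highest 3' minus 5' difference, and CD38 0.034 against DLBCL alone.

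Turned log hazard ratios for PFS were -0.0033 for ELL2 without the low arrays, -0.018 for XBP1 without the arrays of highest 3' minus 5' difference, -0.11 for XBP1 and -0.0037 for ELL2 without strata, -0.032 for POU2AF1 and -0.16 for ELL2 in lymph nodes, -0.83 for PRDM1 and -0.44 for XBP1 in aspirates, and -0.013 for ELL2 by rank. For OS they were -0.022, -0.039 and -0.0030 for ELL2 without the low arrays, in lymph nodes and by rank, -0.031 for XBP1 without the arrays of highest 3' minus 5' difference, and 0.090 for JCHAIN in aspirates. The planned search of promoters for motifs was not run, as no promoter sequences were used here. No paired analysis was possible because each dog gave 1 sample and replicate numbers only name it.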
